A study of Mus musculus with 6 samples.

Results

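The genes described here are Mest, Copg2, Peg10 and Sgce, 4 imprinted genes at 2 sites on proximal mouse chromosome 6, out of 20661 protein-coding genes on the 19 autosomes. They were taken from a list of names and not by a rule on measured values. Earlier results of these data were known when the list was chosen. Each was read at the 50 kb bin that holds its start, or its lower coordinate where no strand was given, together with the bins and bin pairs within 1 Mb. The cells were mouse embryonic stem cells of strain 129, untreated as far as the labels say, and the assay was in-situ Hi-C with the enzyme MboI, in which DNA ends that lie close together in fixed nuclei are joined and the joins counted. There were 3 libraries of the genotype labelled wild type (WT) and 3 of the genotype labelled GFP-CTCF-Del8 (Del8), in which the DNA-binding protein CTCF lacks zinc finger 8. The labels do not settle whether the WT cells carry GFP-tagged CTCF, or whether each line is 1 clone. The maps do not separate the parental alleles, so every value below is a sum over the maternal and the paternal copy.

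An imprinted gene is expressed mainly from the copy inherited from 1 parent. The choice is commonly kept by DNA methylation of a CpG-rich control region on 1 of the copies. CTCF binds DNA through its zinc fingers, at some imprinted sites on the unmethylated copy alone, and together with cohesin it marks borders between domains of chromatin that contact themselves more than their neighbours. Mest encodes a protein of the alpha/beta hydrolase fold and is expressed from the paternal copy. Copg2 encodes a gamma subunit of the COPI vesicle coat, runs towards Mest from the other side, and is known for preferential expression from the maternal copy in mouse tissues. Peg10 is a paternally expressed gene derived from a retrotransposon and needed for the placenta, and its neighbour Sgce encodes epsilon-sarcoglycan and is paternally expressed too.

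On mm10, Mest spans chromosome 6 from 30733506 to 30748466 on the plus strand, and its start lies in the bin from 30700001 to 30750000. Copg2 spans 30747554 to 30896815 on the minus strand, so its start lies in the bin from 30850001 to 30900000 while its 3′ end overlaps that of Mest. Sgce spans 4674350 to 4747204 and Peg10 4747306 to 4760517. The tables used here give no strand for these 2 genes, and the lower coordinate was taken, which puts Sgce in the bin from 4650001 to 4700000 and Peg10 in the bin from 4700001 to 4750000. The Peg10 bin also holds the upper end of Sgce, which is its start if the gene runs on the minus strand. In that case the values given for the Sgce bin describe its 3′ end. A 50 kb bin is wider than either the Mest or the Peg10 gene, so no value belongs to a promoter alone.

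RefSeq promoter sequence (GRCm38.p6) was found for 2 of the 4 genes, Mest and Copg2, and microRNA sequence for miR-335, which lies inside Mest. They are shown because the bins of these starts carry the difference described next. Capitals in the promoters mark CpG, the dinucleotide that is methylated at imprinted control regions, and capitals in the microRNAs mark the seed (bases 2 to 8). Each promoter is 300 bases, 250 before and 50 after the start.
Mest, CpG-rich start, chr6:30737800-30738099, plus strand: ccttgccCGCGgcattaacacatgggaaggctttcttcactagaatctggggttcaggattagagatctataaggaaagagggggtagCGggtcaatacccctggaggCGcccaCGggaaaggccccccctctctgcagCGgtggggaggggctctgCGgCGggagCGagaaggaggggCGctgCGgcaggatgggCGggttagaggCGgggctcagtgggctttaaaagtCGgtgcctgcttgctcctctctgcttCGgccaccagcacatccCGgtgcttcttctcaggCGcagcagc
Copg2, chr6:30896745-30897044, minus strand: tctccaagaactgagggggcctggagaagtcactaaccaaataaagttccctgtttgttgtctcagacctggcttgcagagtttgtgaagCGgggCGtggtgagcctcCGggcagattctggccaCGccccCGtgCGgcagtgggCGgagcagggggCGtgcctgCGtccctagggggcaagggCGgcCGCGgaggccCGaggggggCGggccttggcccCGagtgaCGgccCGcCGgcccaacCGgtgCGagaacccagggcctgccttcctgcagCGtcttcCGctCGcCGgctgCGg
miR-335-5p, chr6:30741314-30741336, plus strand: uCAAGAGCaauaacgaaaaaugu
miR-335-3p, chr6:30741354-30741375, plus strand: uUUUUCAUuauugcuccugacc

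The Mest sequence holds 17 CpG and the Copg2 sequence 25. Among 32851 RefSeq promoters of the same length the median was 7, and 31.4% and 18.4% of them hold at least as many as Mest and Copg2. The start of Mest further upstream, at chr6:30733256-30733555, has 8.

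The libraries held 24038030 to 36233407 contacts in WT and 38088173 to 66266759 in Del8. Of the bins of chromosome 6, 44.4% and 45.2% had lost most of their contacts in WT replicates 1 and 2, against 0.0342% in WT replicate 3 and 0 to 9.36% in Del8. Tests over all libraries were therefore kept to 1529 of 2927 bins of the chromosome (52.2%), and in the coverage of such bins WT replicate 3 lay nearer to the Del8 libraries than to WT replicates 1 and 2. Around Mest and Copg2, 43 of 44 bins were usable and no library was short of contacts in any bin. The exception, from 30750001 to 30800000 inside Copg2, was nearly empty in all 6 libraries. Around Peg10 and Sgce, 13 of 42 bins were usable.

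The first comparison asked whether the domain that holds Mest and Copg2 was separated from its neighbours as strongly in Del8 as in WT. On the lower side it was not. In WT the bins of Mest and Copg2 sat on a plateau of local contact between 2 dips, and in Del8 the plateau and the lower dip were flatter. The upper of the 2 dips was shallow, and its change depended on the processing. The measure was the insulation score, the balanced contact that crosses a bin, averaged over a 500 kb square and given as log2 relative to its chromosome. A low score marks a border, and a high score marks the inside of a domain.

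At the Mest bin, which also holds the starts of Cep41 and of miR-335, the score (replicates 1 to 3, as in every list below) was 0.32, 0.41 and 0.27 in WT against -0.07, 0.02 and 0.02 in Del8. Every WT library was higher than every Del8 library. The difference, Del8 minus WT, was -0.34 on the log2 scale (SE 0.04), a 0.789-fold contact on this relative scale (limma, adjusted p = 0.000265). At the bin of the Copg2 start the score was 0.36, 0.38 and 0.29 in WT against -0.01, 0.06 and 0.03 in Del8, again without overlap. The difference was -0.32 (SE 0.03), with a limma adjusted p of 0.000125.

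Over all 22650 autosomal bins with a score, 27.8% fell and 30.9% rose by the same test (58.7% in either direction), so a call alone does not set these bins apart. Their size of change did lie near the low end: 226 bins (0.998%) had a difference at or below that of Mest, and 338 (1.49%) at or below that of Copg2. The genes had been chosen with earlier results of these data known. Bins that score high were called lower more often than higher: of 7936 bins scoring at least 0.1 on the map summed over all libraries, 44.3% fell and 15.7% rose. With WT replicate 3 as the sole library of WT the difference was -0.28 at Mest and -0.27 at Copg2. With a 250 kb square it was -0.38 at Mest and -0.15 at Copg2, and both passed.

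**Figure D1:**
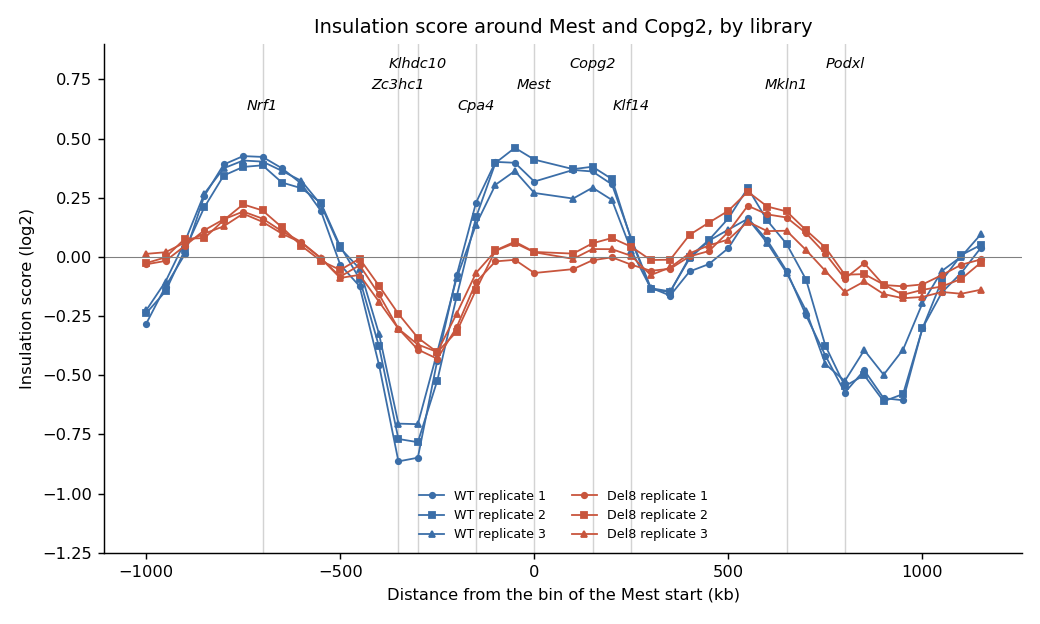
Insulation score (log2, vertical axis) of every scored 50 kb bin against its distance in kb from the Mest bin, 1 line per library, with WT in blue and Del8 in red and the bins of 9 gene starts marked by grey lines. The WT lines reach 0.27 to 0.41 at Mest and fall below -0.70 at Klhdc10, while the Del8 lines stay near 0 at Mest and between -0.39 and -0.34 at Klhdc10.

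Of the 43 scored bins in the window, 15 rose (34.9%), 17 fell (39.5%) and 11 did not pass the threshold. The groups did not overlap at 33 of them, against 65.6% of all autosomal bins. The median difference of the window was 0.02, against 0.01 over all bins, so rises and falls balanced. What differed was the relief: the range from the lowest to the highest score was 1.29, 1.24 and 1.11 in WT against 0.65, 0.68 and 0.58 in Del8. The SD of the score over the window was 0.36, 0.35 and 0.30 in WT against 0.14, 0.15 and 0.14 in Del8. Over all autosomes it was 0.44, 0.43 and 0.40 in WT and 0.35 in each Del8 library, so the flattening was present across the genome and was larger in size here. That difference in size was not tested.

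The window held 3 dips of prominence 0.2 or more in the summed map, and the score rose in Del8 at all of them. Among 1345 such boundaries of the genome 47.6% rose and 13.4% fell. The dip below Mest lies at 30400001 to 30450000, at the start of Klhdc10, which encodes a kelch-domain substrate receptor of a ubiquitin ligase. Its score was -0.85, -0.78 and -0.71 in WT against -0.39, -0.34 and -0.37 in Del8, and it rose by 0.41 (SE 0.04), a 1.33-fold contact across it (limma, adjusted p = 0.0001). The bin next to it, with the start of Zc3hc1, which encodes a protein of the nuclear pore basket, had the largest rise in the window, from -0.78 ± 0.08 to -0.28 ± 0.04 (SD, n = 3 each), a difference of 0.50.

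The dip 900 kb above Mest, at 31600001 to 31650000, holds no gene start. Its score was -0.60, -0.61 and -0.50 in WT against -0.12, -0.12 and -0.16 in Del8, a rise of 0.44 (limma, adjusted p = 5.23e-05). Podxl, the gene of the cell-surface sialomucin podocalyxin, lies close by. No strand was given for it, and the bin of its lower coordinate rose by 0.44 as well (limma, adjusted p = 2.9e-05). The bin of its upper end, from 31550001 to 31600000, rose by 0.39. The middle dip, at 31000001 to 31050000, was shallow: -0.13, -0.14 and -0.13 in WT against -0.06, -0.01 and -0.08 in Del8, a rise of 0.08 (limma, adjusted p = 0.024). That call ended without WT replicate 2, without Del8 replicate 1 and without Del8 replicate 2 (limma, adjusted p = 0.0522, 0.0583 and 0.0911). It ended too without WT replicates 1 and 2 together, with libraries centred on their median and with libraries scaled to their SD (limma, adjusted p = 0.0908, 0.0779 and 0.0671). The difference was -0.01 on maps that were not balanced.

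Boundaries were also called on each library's own map. Every WT library had 3 in the window, at 30350001 or 30400001, at 31050001, and at 31500001, 31600001 or 31650001. Every Del8 library had 2, at 30450001 and 31650001. No boundary was called near 31050001 in a Del8 library, and the lower boundary was called 1 or 2 bins nearer to Mest than in WT.

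The genes of the neighbourhood came from a fixed list of 17 that includes Mest and Copg2. Their starts (lower coordinates where no strand was given) fall in 13 bins. The score rose at 5 of these bins, fell at 7 and did not pass at 1, with a median difference of -0.17. The bins of Mest and Copg2 are counted among the 7 that fell. Over all autosomal bins 30.9% rose and 27.8% fell. Squares of nearby bins overlap, so these bins do not count as independent. Genes inside the plateau fell with Mest and Copg2. The carboxypeptidase genes Cpa5 and Cpa1, which share a bin, fell by 0.36, from 0.37 ± 0.05 to 0.01 ± 0.03 (SD, n = 3 each). Cpa4 fell by 0.28 and Tsga13, a gene named for its expression in testis, fell by 0.26. The bin shared by Tmem209 and Ssmem1 fell by 0.17, which did not pass with a 250 kb square (limma, adjusted p = 0.0623). Tsga13 did not pass with that square either (limma, adjusted p = 0.116).

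Klf14, a transcription factor gene expressed from the maternal copy, is the third imprinted gene of the list here, and its score did not pass the threshold. Its score was 0.08, 0.07 and 0.03 in WT against -0.03, 0.04 and 0.0046 in Del8, so the groups overlapped (difference -0.05, limma, adjusted p = 0.146). Klf14 lies at the upper edge of the plateau, and there the direction depended on the square: with 250 kb it rose by 0.13 (limma, adjusted p = 0.0214). On maps that were not balanced it fell by 0.14 (limma, adjusted p = 0.0126). Of the 3 bins of imprinted genes, 2 fell and 1 did not pass, where 27.8% of all autosomal bins fell.

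Genes at and beyond the edges rose or followed their own domain. Ube2h, which encodes a ubiquitin-conjugating enzyme, rose by 0.23 at the lower dip, although not with a 1 Mb square (limma, adjusted p = 0.114). Mkln1, the gene of muskelin, rose by 0.18 towards the dip at 31600001, a difference that was -0.0070 with a 250 kb square. Nrf1, a transcription factor of genes for mitochondrial proteins, sits on the plateau of the domain below and fell by 0.24, from 0.40 ± 0.02 to 0.17 ± 0.02 (SD, n = 3 each).

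The dips split the window into domains, and contact within and between them was then summed in each library. This division was made after the maps had been seen. The Mest domain runs from 30450001 to 31000000, over 550 kb and 11 bins, and holds the starts of the genes from Tmem209 to Klf14. Contact is given as observed over expected, balanced contact over the chromosome average for bins equally far apart. Within the Mest domain it was 1.39, 1.46 and 1.37 in WT against 1.15, 1.12 and 1.13 in Del8, and the groups did not overlap. Between the Mest domain and the lower neighbour, which ends at 30400000, it was 0.618, 0.613 and 0.684 in WT against 0.733, 0.755 and 0.743 in Del8, again without overlap. So self-contact of the domain was 0.803-fold and contact across its lower border 1.17-fold that of WT. Each had a two-sided exact permutation p of 0.10, the smallest that 3 libraries against 3 can give, and an adjusted p of 0.15 over 3 values. With WT replicate 3 as the sole library of WT the difference at the lower border was 0.0601, against 0.106. It was 0.212 for pairs within 500 kb and 0.0055 with a looser screen of bins and no balancing, where the difference within the domain was -0.483, against -0.277.

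Contact with the higher neighbour, from 31050001 to 31600000, was 0.982, 0.995 and 1.01 in WT against 0.944, 1.00 and 0.945 in Del8. The groups overlapped (exact permutation test, p = 0.30). The difference of -0.0309 had no stable direction: it was 0.131 for pairs within 500 kb and -0.219 with the looser screen. The border between these domains was the shallow dip described above.

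**Figure D2:**
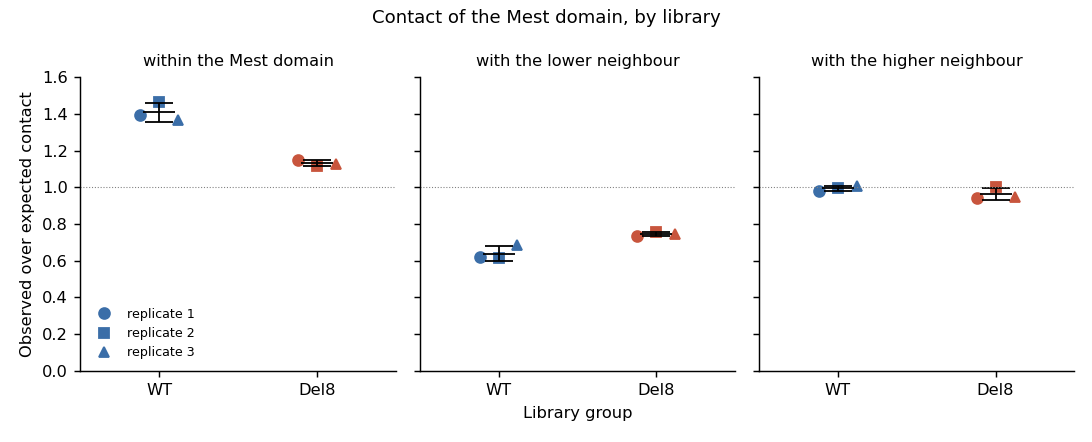
Observed over expected contact (vertical axis, from 0) within the Mest domain, between it and its lower neighbour, and between it and its higher neighbour, with 1 point per library and the mean with SD as bars (n = 3 each). The Del8 libraries are lower in the first panel (1.12 to 1.15 against 1.37 to 1.46), higher in the second (0.733 to 0.755 against 0.613 to 0.684) and overlap WT in the third.

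**Figure D3:**
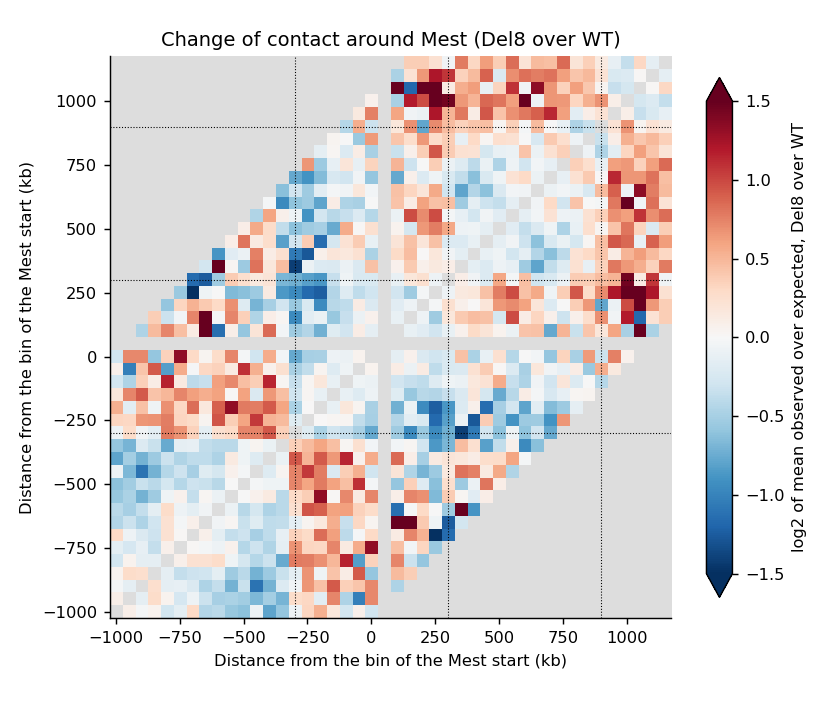
Log2 of mean observed over expected contact in Del8 over that in WT for pairs of 50 kb bins, with both axes in kb from the Mest bin, the 3 dips as dotted lines, and bins or pairs without a value in grey. Blue (lower in Del8) fills most of the Mest domain and of the domain below. Red (higher in Del8) fills much of the block where these 2 domains meet. It also fills much of the block where the higher neighbour meets bins above 900 kb. Pairs of the Klf14 bin with the domain below are mostly blue.

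The contacts of the member bins themselves were read next in 3 bands of distance on each side. Mest contacts with bins 250 to 500 kb below were 1.10, 1.18 and 1.01 in WT against 0.853, 0.899 and 0.873 in Del8. Those with bins 50 to 200 kb below were 1.35, 1.35 and 1.53 in WT against 1.27, 1.21 and 1.21 in Del8. Every WT library was higher in both bands. The farther band spans the lower dip. Within it the groups were apart at 300 kb below, the dip itself, and at 250 kb below, the edge of the Mest domain. From 350 to 500 kb below, in the lower neighbour, they overlapped at each distance. On the upper side of Mest the groups overlapped in all 3 bands. Copg2 contacts with bins 250 to 500 kb below, which hold the lower dip and the edge of its domain, were 1.51, 1.46 and 1.32 in WT against 1.05, 1.11 and 1.11 in Del8.

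Copg2 contacts 250 to 500 kb above, beyond Klf14, went the other way, at 0.694, 0.630 and 0.672 in WT against 0.840, 0.960 and 0.757 in Del8, and so did contacts 550 to 1000 kb below, at 0.618, 0.698 and 0.507 against 0.711, 0.747 and 0.760. The share of Copg2 contacts within 1 Mb that went to higher coordinates was 43.1%, 42.2% and 48.8% in WT against 49.8%, 50.7% and 49.9% in Del8. These values did not overlap, but the difference of 5.45 percentage points was 1.37 with WT replicate 3 as the sole library of WT. At Mest this share was 47.8%, 44.0% and 43.3% against 46.4%, 45.1% and 45.4%, and overlapped. Every band or share without overlap had an exact permutation p of 0.10, the smallest possible. Adjusted values were 0.257 over 18 bands and 0.20 over 2 shares, so none passed. Coverage of the bins did not separate the groups at Mest (0.973, 0.999 and 0.945 against 0.970, 0.969 and 0.995 of the library's scale) or at Copg2.

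**Figure D4:**
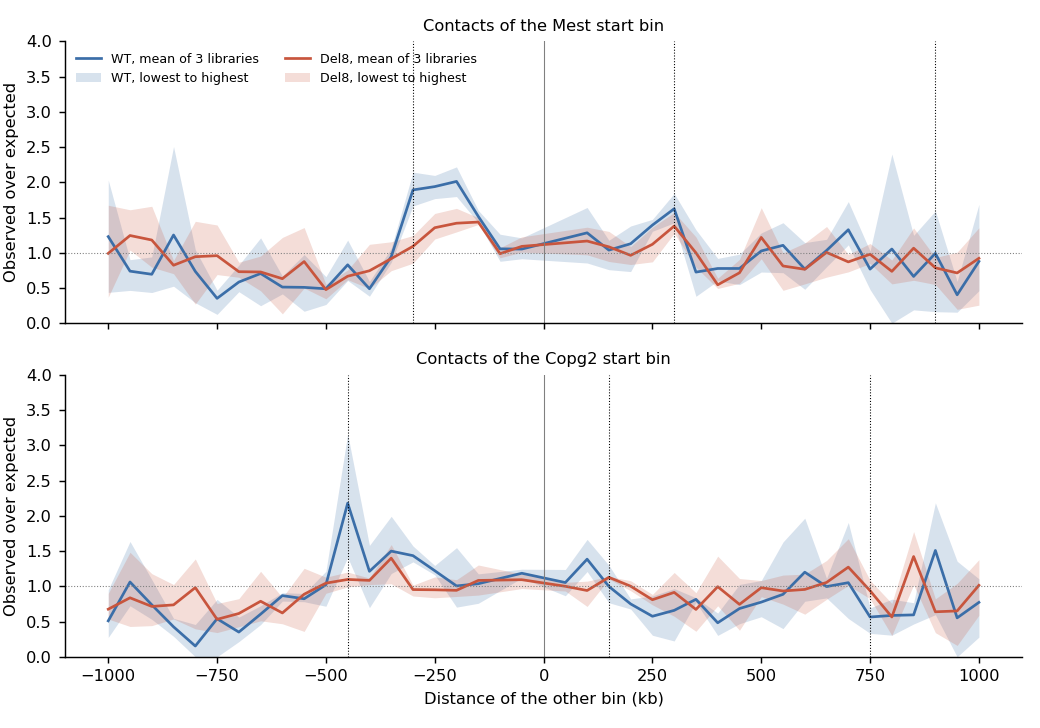
Observed over expected contact (vertical axis) of the Mest bin and of the Copg2 start bin with bins at each distance in kb (horizontal axis), as the mean of 3 libraries per group with the range from lowest to highest shaded and the 3 dips as dotted lines. From 300 to 200 kb below Mest every WT library lies above every Del8 library, at 50 kb below the ranges overlap, and farther than 500 kb the shaded ranges mostly overlap.

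Single 50 kb bin pairs carried few contacts. Of 427307 pairs tested on all autosomes, 0.418% rose and 0.345% fell in Del8. In the window of Mest and Copg2, 5 of 591 pairs rose (0.846%) and 4 fell (0.677%), and none of the 69 pairs with a Mest or Copg2 bin passed (edgeR quasi-likelihood test, at an unadjusted p under 0.05 there were 2 higher and 6 lower; the other tool, DESeq2, called 1 rise and 1 fall in the whole window). Mest with Copg2, 150 kb apart, had 34, 21 and 36 contacts in WT and 75, 36 and 40 in the deeper Del8 libraries. Relative to depth and distance this was 0.960, 0.575 and 0.829 against 0.946, 0.654 and 0.829, a log2 fold change of 0.06 (SE 0.23, edgeR, adjusted p = 0.951). Mest with the bin of Klhdc10 at the lower dip gave 1.73, 2.17 and 1.73 of the expected count in WT against 1.17, 1.22 and 0.857 in Del8. That is a log2 fold change of -0.77, which did not pass (edgeR, adjusted p = 0.0756).

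Among the pairs that passed was Ube2h with Klhdc10, 100 kb apart and ending at the lower dip. It had 26, 23 and 37 contacts in WT against 116, 84 and 74 in Del8. Its count over expected was 0.547, 0.473 and 0.655 in WT against 1.12, 1.16 and 1.16 in Del8, a log2 rise of 1.02 (SE 0.19, edgeR, adjusted p = 0.00407). Ube2h with Cpa5 and Cpa1, 300 kb apart across the same dip, rose by 1.33 (edgeR, adjusted p = 0.0418). Tmem209 and Ssmem1 with Klf14, 450 kb apart and at both ends of the Mest domain, had 39, 39 and 41 contacts in WT against 47, 17 and 24 in Del8. This pair fell by 1.22 on the log2 scale, from 2.98, 2.92 and 2.42 of the expected count to 1.46, 0.766 and 1.22 (edgeR, adjusted p = 0.00668). The bin at 30450001 with Klf14, 500 kb apart, fell by 1.16, and Klhdc10 with the bin at 31050001, 650 kb apart, fell by 1.44.

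Of the other called pairs, 3 rose and 1 fell. The bin at 30150001 with that of Tmem209 rose by 1.46, and the bin at 30250001 with that at 30450001 by 1.21. The bin at 31300001 with that at 31700001, across the dip at 31600001, rose by 1.66. The bin at 29800001 with that at 30250001, inside the lower neighbour, fell by 1.17. The counts of pairs depended on single libraries: without each library in turn, 1 to 2 pairs rose and 1 to 6 fell. Leaving out any library brought the rises to 2 or fewer, and the falls rose to 6 only without WT replicate 3.

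With pairs of 100 kb bins, which hold more contacts each, more passed everywhere: 6.59% of 103434 pairs rose and 5.54% fell. In the window of Mest and Copg2, 20 of 145 rose (13.8%) and 22 fell (15.2%). Split at the dips, a division made after the maps had been seen, 5 of the 10 pairs within the stretch of Mest (30400001 to 31000000) fell and none rose. Within the stretch below, 11 of 21 fell and none rose. Between these stretches 8 of 32 rose and 1 fell. Across the dip at 31600001, from the stretch just below it, 9 of 18 rose and 1 fell. The pairs joining the Mest stretch to the next higher one held 1 rise and 2 falls among 29.

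At the lower dip, the bin at 30300001 to 30400000, with Ube2h and Zc3hc1, meets that at 30400001 to 30500000, with Klhdc10, which holds the dip. This pair had 157, 178 and 190 contacts in WT against 532, 378 and 337 in Del8. That is a rise of 1.51-fold (edgeR, adjusted p = 3.85e-06). The 100 kb bin of the Copg2 start entered 19 pairs, of which 3 fell and none rose. All 3 ran to other bins of the Mest stretch, with folds of 0.682, 0.744 and 0.791. The 100 kb bin of Mest includes the nearly empty 50 kb inside Copg2 and was not tested.

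The site of Peg10 and Sgce, 26 Mb closer to the start of the chromosome, could be followed less far. Below Sgce most bins had lost their contacts in WT replicates 1 and 2, which were each short in 28 of 42 bins of the window, against 0 in WT replicate 3, Del8 replicate 1 and Del8 replicate 2 and 7 in Del8 replicate 3. The bins of the genes themselves were usable. The Sgce bin held 593, 595 and 1012 contacts with other bins in WT against 1591, 1125 and 886 in Del8, and the Peg10 bin 673, 665 and 986 against 1742, 1248 and 1023. No insulation score over 6 libraries could be computed for any bin of the window. Most bins were not usable themselves, and at the 13 usable bins under 50% of the square was usable. So none of the 16 listed genes of the neighbourhood (from Calcr to Dync1i1, 6 of them imprinted) had a score.

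Scaled coverage of the Peg10 bin was 0.644, 0.629 and 0.687 in WT against 0.717, 0.714 and 0.688 in Del8, without overlap but with the lowest Del8 value next to the highest WT value (exact permutation test, p = 0.10, adjusted p = 0.40 over 4 bins). At Sgce it was 0.567, 0.562 and 0.705 against 0.655, 0.644 and 0.596, and overlapped. With WT replicate 3 alone the difference at Peg10 was 0.0194, against 0.0533 over all libraries.

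The bins used for Sgce and Peg10 are neighbours. Their pair had 71, 87 and 90 contacts in WT against 141, 83 and 68 in Del8, or 0.773, 0.940 and 0.896 of the expected count against 0.725, 0.613 and 0.573. Every Del8 library was lower, but the log2 fold change of -0.43 (SE 0.15) did not pass over all pairs (edgeR, adjusted p = 0.163). Of 73 pairs tested in the window 1 fell (1.37%) and none rose, and it was among the 22 pairs with a Sgce or Peg10 bin. Sgce with the bin of Pon1, 500 kb higher, which encodes the serum esterase paraoxonase, had 26, 24 and 29 contacts in WT against 27, 16 and 20 in Del8. Relative to depth and distance it went from 2.27, 2.06 and 1.95 to 0.956, 0.810 and 1.17, a log2 fall of 1.10 (SE 0.28, edgeR, adjusted p = 0.0446). The call was close to the threshold: it was lost without any single library, with other offsets and with DESeq2.

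Contacts of both bins with bins 250 to 500 kb higher were lower in Del8. For Sgce they were 3.03, 3.22 and 2.92 in WT against 2.52, 2.42 and 2.56 in Del8, and for Peg10 2.76, 2.85 and 2.80 against 2.45, 2.13 and 2.11. Neither overlapped (exact permutation p = 0.10, the smallest possible, adjusted p = 0.257 over 18 bands). These balanced levels rest on only 4 partner bins per gene, most of them shared, since few bins near Sgce and Peg10 were usable. Bin by bin, the groups were apart for Sgce only at 500 kb, the Pon1 pair given above. For Peg10 they were apart only at 300 kb. Without balancing the difference at Peg10 was -0.284, against -0.575. Nearer and farther bands overlapped for both genes.

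**Figure D5:**
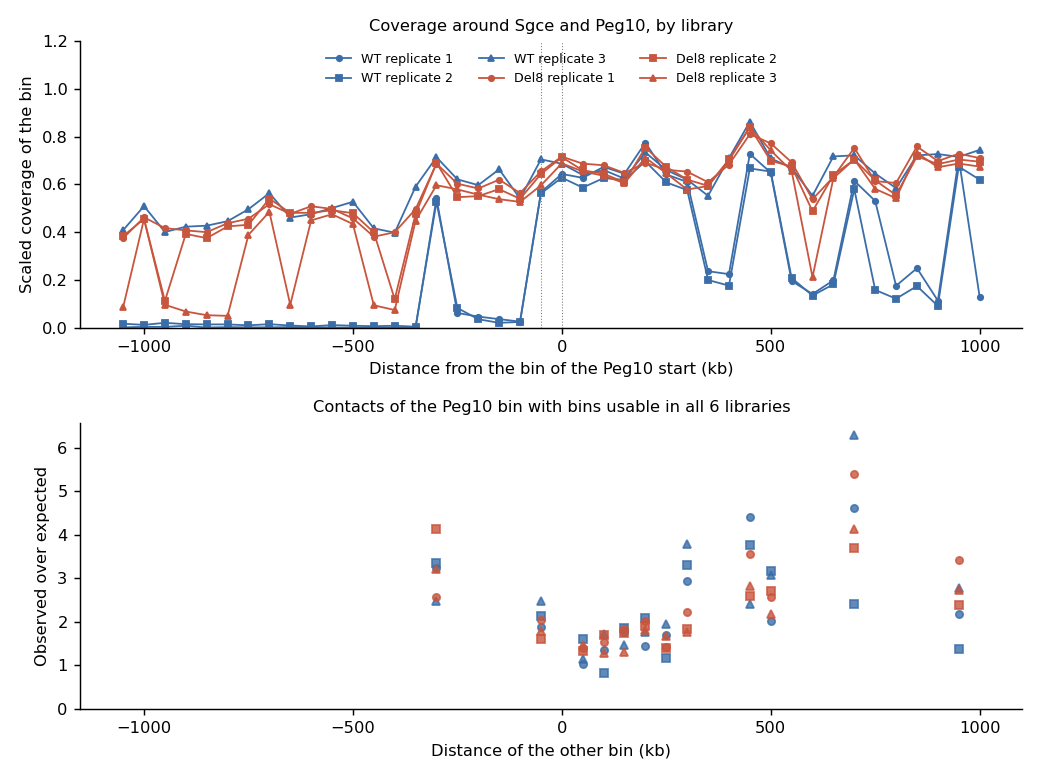
Scaled coverage of each 50 kb bin by library against distance in kb from the Peg10 bin (top, with dotted lines at Sgce and Peg10), and balanced observed over expected contact of the Peg10 bin with bins usable in all 6 libraries against distance in kb (bottom, 1 point per library). WT replicates 1 and 2 fall near 0 over most of the lower side in the top panel, which leaves 13 usable bins, and at 300 kb in the bottom panel all WT points lie above the Del8 points.

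Among the 4 libraries without that loss, WT replicate 3 and the 3 of Del8, 33 bins of the window were usable and 27 had a score. With 1 WT library these are values with no test. The score was 0.47 at Sgce in WT replicate 3 and 0.45, 0.45 and 0.46 in Del8. At Peg10 it was 0.68 against 0.54, 0.54 and 0.58. WT replicate 3 was above all Del8 libraries at 14 of the 27 bins, an unbroken run from Sgce to 500 kb above Peg10 among them, below all at 10 and within their range at 3. Over all 37497 autosomal bins so scored, 39.9% were above and 41.1% below.

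The plateau above Peg10, over Ppp1r9a, an imprinted gene for the actin-binding protein neurabin, reached 0.90 in WT replicate 3, in the bin from 4950001 to 5000000, where Del8 had 0.64, 0.64 and 0.62. The lowest score of the window, at 5600001 to 5650000, was -0.76 in WT replicate 3 and -0.63, -0.67 and -0.59 in Del8. Below Sgce, the bin of Casd1, a sialic acid acetyltransferase gene, had 0.21 against 0.36, 0.33 and 0.29. The share of Sgce contacts within 1 Mb that went to higher coordinates was 68.9% in WT replicate 3 and 56.1%, 56.1% and 60.5% in Del8, while at Peg10 it was 53.6% against 54.3%, 54.2% and 55.7%. In these 4 libraries both the plateau over Peg10 and the dip above it were flatter in each Del8 library, as were the plateau of Mest and the dip below it.

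Contact between the sites was read as 1 value per library. The usable bins around Peg10 and those around Mest shared 138, 112 and 207 contacts in WT against 226, 174 and 142 in Del8. Observed over expected contact was 1.83, 1.42 and 1.87 in WT against 1.48, 1.52 and 1.51 in Del8. The groups overlapped and did not differ beyond their spread (exact permutation test, p = 0.40).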

How the data were processed

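Intrachromosomal contact counts of pairs of 50 kb bins, 1 table for each of 6 Hi-C libraries, were used as deposited by the authors. Coordinates are on mm10, per the submitters' processing notes. Aligner and read filters: not given in the sources used here. Replicates are biological per the design text, and none was a near copy of another (lowest chi-square per degree of freedom 1.69). The members and lists were chosen with earlier results of these data known.

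Usable bins had, in each of the libraries, scaled coverage above 0.1 and no less than 0.5 of that in the third highest library, a screen set with the data in view. Maps were balanced per chromosome, with insulation squares of 500 kb at least 50% usable. Scores were tested with limma 3.58.1 (trend) over 22650 bins. Counts of pairs of different bins up to 1 Mb apart with a mean count of 5 or more were tested with edgeR 4.0.16 (quasi-likelihood), with offsets per library, chromosome and distance. Both used Benjamini-Hochberg adjustment and a threshold of 0.05. DESeq2 1.42.0 was an alternative. For single values per library a two-sided exact permutation test was used.

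On simulated data limma recovered 199 of 200 shifts of 0.3 with 8 other calls among 22650 bins. edgeR recovered 60 of 200 2-fold changes in pairs with a mean count of 20 or more, with 1 other call among 427307 pairs, so an uncalled pair may still differ. Named were the 4 genes, the listed neighbours, the boundaries, and per locus up to 5 called pairs in each direction plus those with a member bin. A listed neighbour is not reported here. The domains and 100 kb stretches were chosen after the maps were seen. Gene positions and promoters are from RefSeq, GRCm38.p6.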

Additional observations from a re-analysis of the deposited data

How the results depend on the processing

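Around Mest the counts of called bin pairs moved more between alternatives than the counts of called scores. The calls at the Mest and Copg2 bins held under every alternative run for them; Copg2 was -0.15 with a 250 kb square and -0.27 without WT replicates 1 and 2. The counts of bins that rose and fell stayed within 1.5 times. Direction turned at these bins: the boundary at 31000001 was -0.0149 on unbalanced maps and -0.00987 with the looser screen, Klf14 0.13 and Mkln1 -0.0070 with a 250 kb square. The cause was not tested.

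The single fallen pair of Peg10 and Sgce was lost (0) under TMM, balancing weights, the looser screen, 100 kb bins (3 pairs tested), DESeq2, without WT replicates 1 and 2, and without each library in turn (0 to 0). Pairs around Mest that rose and fell numbered 0 and 0 under the looser screen, 20 and 22 with 100 kb bins, 1 and 1 with DESeq2, 1 and 0 without WT replicates 1 and 2, and 1 to 2 and 1 to 6 without each library in turn. Replicate numbers are shared by the groups, but same-numbered libraries did not deviate together (correlations -0.0977, -0.0268 and -0.178). With the replicate number as a block, 2 pairs around Mest rose and 1 fell, none fell at Peg10 (0), and no score call at Mest or Copg2 changed. Genome-wide, median centring of the libraries gave 26.8% of bins higher and 32.9% lower.

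The difference within the Mest domain was -0.224 unbalanced and -0.483 with the looser screen. With the lower neighbour it was 0.0055 with the looser screen, 0.212 within 500 kb and 0.0601 without WT replicates 1 and 2. With the higher neighbour it was -0.219 with the looser screen and 0.131 within 500 kb. The Copg2 share to higher coordinates was 1.37 without WT replicates 1 and 2. Balanced maps under the looser screen were not run because balancing did not converge in WT replicates 1 and 2, so unbalanced values stand in.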

Other observations

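The window of Mest also holds 2 clusters of microRNAs that the gene list leaves out. Members of the miR-183 cluster, known from sensory organs, lie in the bin from 30150001 to 30200000 on the minus strand. Its insulation score was 0.20, 0.23 and 0.22 in WT against -0.0043, -0.02 and -0.0048 in Del8, a fall of 0.22 without overlap (limma, adjusted p = 0.000146). This bin lies in the domain below that of Mest, and it is the one whose contact with the Tmem209 bin rose. The 5p microRNAs of the cluster resemble each other at the seed (capitals, bases 2 to 8).
miR-96-5p: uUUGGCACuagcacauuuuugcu
miR-182-5p: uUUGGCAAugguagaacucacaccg
miR-183-5p: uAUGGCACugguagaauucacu

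The miR-29 family genes Mir29a and Mir29b-1, known for targeting collagen transcripts, lie in the bin from 31050001 to 31100000, at the shallow dip above Mest that was called in the own maps of WT libraries only. The score there was -0.16, -0.15 and -0.15 in WT against -0.05, -0.01 and -0.04 in Del8, a rise of 0.12 (limma, adjusted p = 0.00378). It did not pass on unbalanced maps (limma, adjusted p = 0.204). Their 3p forms share 1 seed.
miR-29a-3p: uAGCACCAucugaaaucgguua
miR-29b-3p: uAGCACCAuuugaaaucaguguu

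At the lower end of the window the bin of Smo, the gene of the Hedgehog signal transducer Smoothened, went from -0.25 ± 0.03 to -0.01 ± 0.02 (SD, n = 3 each), a rise of 0.23 (limma, adjusted p = 0.000229). The bin of Ahcyl2 next to it rose by 0.13. Both were chosen after their values were seen.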
